A study of Mus musculus with 6 samples.

Results

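The histone genes of RAW264.7 cells were examined in a table of gene expression made from 6 RNA samples. RAW264.7 is a mouse macrophage line that turns into bone-resorbing osteoclasts when the cytokine RANKL is added. The samples form 2 groups at day 3, with 3 untreated controls (Ctrl) and 3 samples that received RANKL, and both groups are the same cell line with no other label. The labels call the samples of a group replicate biosamples but do not say how the cultures were separated. RNA was selected by its poly(A) tail and made into strand-specific libraries. A gene was taken as a histone gene when its symbol began with one of a set of histone gene stems, from the linker histone H1 to the core histones H2A, H2B, H3 and H4 and macroH2A. The rule found 33 genes among the 11031 rows, of which 24 were replication-dependent and 9 were variants.

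Histones are the proteins around which DNA is wound, and the linker histone H1 binds where the DNA enters and leaves that particle. Replication-dependent histone genes lie in clusters, have no introns as a rule and are expressed in S phase, when new DNA needs packing. Their mRNAs normally end in a conserved stem-loop in place of a poly(A) tail, and the stem-loop binding protein SLBP holds that end. Variant histone genes mostly lie outside those clusters, most give ordinary polyadenylated mRNAs, and they are expressed through the cell cycle.

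The values per library carry letters that match no sample label, so no value per sample, no spread and no depth is given. The authors' own comparison of the conditions was not used, and Ctrl and RANKL are not compared. The level of each gene is the authors' mean FPKM over the libraries. It is taken here as log2, although the header states no scale, base or offset. FPKM scales reads by transcript length and library size. Because the RNA was selected by its poly(A) tail, the level of a gene whose mRNAs mostly lack a tail is that of the RNA that passed this selection, and it cannot be read as its full amount beside that of a variant. It also depends on the transcript length that the authors used, which is not given in the sources used here. Over the 24 replication-dependent genes, Spearman's correlation of level with the longest transcript in GENCODE M21 was -0.38. This value is a description across genes of 1 table and does not show that length set the levels. Each level is a single value that pools both conditions, with no error and no test, and it is placed by its percentile, the share of all rows at or below it. The median level of all rows was 3.60, and 10% of rows were at or below 1.21 and 10% above 6.02.

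The table held markers of macrophages and of osteoclasts. Of the macrophage markers, 5 of 6 had a row, from Adgre1 at percentile 68.3 to Cd68 at percentile 99.2. All 8 osteoclast markers had a row, and 4 of them were at or above the median of all rows. Cathepsin K (Ctsk) at percentile 94.6 and Acp5 at percentile 89.3 were the highest. The 4 below the median were Ocstamp (30.9), Oscar (27.8), Itgb3 (11.9) and Calcr (2.18). None of the 5 lymphocyte markers had a row, and 2 of the 6 fibroblast and osteoblast markers did, Runx2 at percentile 2.96 and Pdgfrb at percentile 0.979.

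The stem-loop that ends replication-dependent histone mRNAs is shown first, because the libraries were selected on the tail that it replaces. It was searched in the annotated transcripts as a stem of 6 bases that begins with GG, a loop of 4 bases that begins with TTT, and a perfectly paired second strand. The capitals mark the stem-loop, and the 5 bases on either side are in lower case. The sequences are in DNA letters, 5′ to 3′ on the gene's strand, from GENCODE M21 on GRCm38 (mm10), and each lies in the annotated 3′ UTR.
H1f2, chr13:23739512-23739527, plus strand: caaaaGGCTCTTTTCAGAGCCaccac
H2ac18, chr3:96246032-96246047, plus strand: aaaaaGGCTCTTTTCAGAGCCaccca
H2bc12, chr13:22036300-22036315, plus strand: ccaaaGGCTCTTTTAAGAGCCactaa
H4c9, chr13:22040966-22040981, minus strand: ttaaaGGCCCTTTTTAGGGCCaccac
H4c8, chr13:23531458-23531473, plus strand: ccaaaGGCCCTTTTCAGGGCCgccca
H2ax, chr9:44335240-44335255, plus strand: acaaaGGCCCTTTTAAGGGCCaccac

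The form carried by H1f2 and H2ac18 was the most frequent, in 26 annotated histone genes, of which 14 had a row. The form of H2bc12 was found in 6 genes, of which 1 had a row, and the form of H4c8 in 7 genes, of which 2 had a row. The form of H4c9 was shared with H4c14, and both had a row. H2ax carried a form of its own. The form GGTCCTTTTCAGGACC was in 2 genes, neither with a row. Across the genome, 72 of 21951 protein-coding genes (0.328%) held such a stem-loop in any transcript, a count that includes the histone genes themselves. Among the members, 19 of 24 replication-dependent genes and 1 of 9 variants, H2ax, held one.

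In this poly(A)-selected RNA, variant histone genes stood high in the table and replication-dependent genes stood low. The median level of the 9 variants was 6.0, at percentile 89.8, and that of the 24 replication-dependent genes was 1.41, at percentile 12.1. Of the variants, 8 were at or above the median of all rows and 4 were in the highest 10%. Of the replication-dependent genes, 3 were at or above the median of all rows, 11 were in the lowest 10% and none was in the highest. When members were split by the stem-loop and not by symbol, the 20 genes with one had a median at percentile 15.9. The 13 in which the search found none had a median at percentile 55.9.

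**Figure D1:**
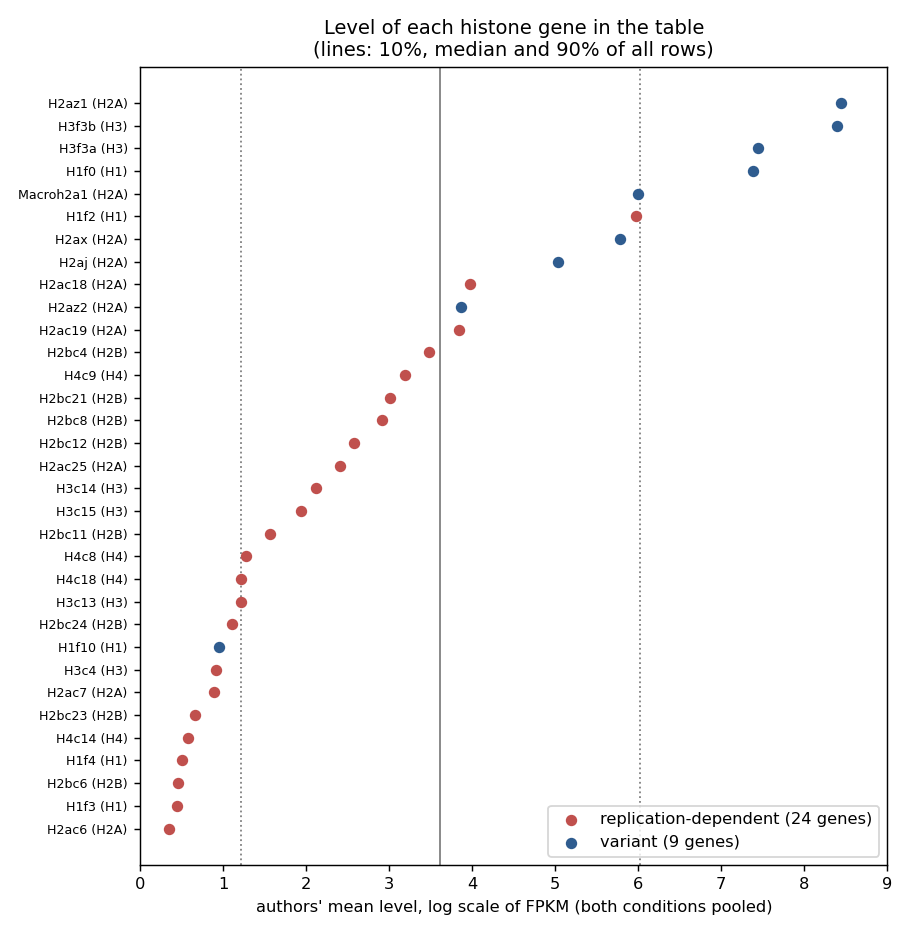
Level of each of the 33 histone genes, as the authors' mean over both conditions, taken as a log scale of FPKM (horizontal axis). Genes are ordered by level, with replication-dependent genes in red and variants in blue. The grey lines are the levels with 10%, 50% and 90% of all rows at or below them (1.21, 3.60 and 6.02), and the points at the right are variants except for H1f2, at 5.97.

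Among the variants, H2az1 was the highest, with a level of 8.44 (percentile 98.4), which ranked it 178th among all rows. It encodes H2A.Z, the H2A form found at the nucleosomes beside promoters. H2az2, which encodes the second H2A.Z protein, had a level of 3.87 (percentile 55.9). H3f3b and H3f3a encode the same protein, H3.3, which can also be laid down outside S phase, and their levels were 8.40 (percentile 98.3) and 7.45 (percentile 96.8). The 4 replication-dependent H3 genes with a row had levels between 0.92 and 2.12.

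H1f0 encodes H1.0, the linker histone known from cells that divide little, and its level was 7.38 (percentile 96.7). H1f10, another linker histone variant, was the only variant below the median of all rows, with a level of 0.95 (percentile 7.23). It was also the only variant with a row that overlaps another gene, Gm47286, on the same strand. Macroh2a1, whose protein carries a large extra domain and is known from silent chromatin, had a level of 6.0 (percentile 89.8). H2ax, whose protein is phosphorylated at DNA breaks, had a level of 5.78 (percentile 88.0), and H2aj had a level of 5.04 (percentile 79.1). Of the genes that the symbol rule counts as variants, H1f6, H1f7, H1f8, Macroh2a2 and H4f16 had no row here. H2ab1, H2ab2, H2ab3 and H2bu2 are histone genes whose symbols the rule leaves out, and none of them had a row. H1f6, H4f16 and H2bu2 hold the stem-loop of replication-dependent genes and are called variants here by symbol alone.

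H1f2 stood apart from the other replication-dependent genes. This linker histone gene had a level of 5.97 (percentile 89.5), while the other replication-dependent H1 genes with a row, H1f4 and H1f3, had levels of 0.50 and 0.44 (percentiles 2.73 and 2.06). The next highest replication-dependent genes were H2ac18 and H2ac19, which encode the core histone H2A, with levels of 3.98 and 3.84 (percentiles 58.4 and 55.2). The remaining H2A genes were H2ac25 at 2.40, H2ac7 at 0.89 and H2ac6 at 0.35, the lowest of the 33 members.

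Among the replication-dependent genes, H2B had the most with a row. The 8 genes ranged from H2bc4 at 3.47 (percentile 47.0) and H2bc21 at 3.01 (percentile 36.4) down to H2bc23 at 0.66 and H2bc6 at 0.45. Between them lay H2bc8 at 2.91, H2bc12 at 2.57, H2bc11 at 1.56 and H2bc24 at 1.11. No H2B gene reached the median of all rows. For H3, H3c14 was at 2.12, H3c15 at 1.94, H3c13 at 1.21 and H3c4 at 0.92. For H4, H4c9 was the highest at 3.19 (percentile 40.2), followed by H4c8 at 1.27, H4c18 at 1.21 and H4c14 at 0.58. The order inside H3 and H4 rests on differences of unknown error.

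The share of annotated genes with a row is given here by family and kind, and differences between these small sets were not tested. By the same symbol rule, GENCODE M21 and RefSeq annotate 64 replication-dependent protein-coding genes, of which 24 (37.5%) had a row, and 14 variant genes, of which 9 (64.3%) had a row. With the 4 variant genes that the rule leaves out, it was 9 of 18 (50%). The 14 include H1f6 and H4f16, and the 18 also H2bu2, which hold a stem-loop and are variants by symbol alone. Of all 21951 annotated protein-coding genes, 49.6% had a row. Within the replication-dependent genes, the share with a row was 3 of 5 for H1, 47.1% for H2B (8 of 17), 33.3% for H3 (4 of 12), 33.3% for H4 (4 of 12) and 27.8% for H2A (5 of 18). The filter that left the rows is not given in the sources used here. Genes without a row are described by annotation and sequence only, and why they had no row was not tested.

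**Figure D2:**
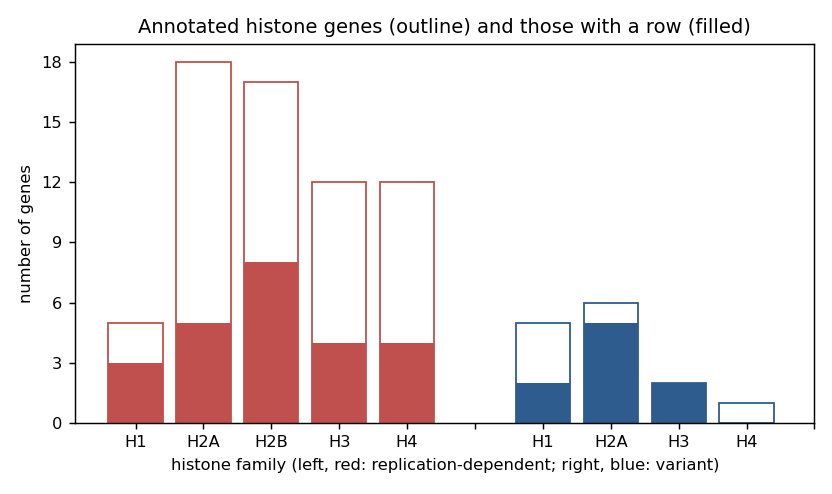
Number of annotated histone genes by family (outlined bars) and of those with a row in the table (filled bars), for replication-dependent genes in red and variants in blue. H2A and H2B are the largest families, with 18 and 17 annotated replication-dependent genes, and 5 and 8 of them had a row.

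The replication-dependent genes with a row were annotated with longer transcripts than those without. The longest model had a median of 1202.5 bases (range 430 to 7425) for the 24 genes with a row and of 481 bases (range 312 to 1679) for the 40 without. In 12 of the 24, a model ran on for at least 100 bases past the stem-loop, against 7 of the 40. A poly(A) signal (AATAAA or ATTAAA) stood in the last 45 bases of a model in 10 of the 24 and in 4 of the 40, and spliced models were annotated for 4 and 1. At least 1 of these 3 features was present in 17 of 24 genes with a row (70.8%) and in 9 of 40 without (22.5%). No stem-loop was found in 5 of the 24 and 18 of the 40, and a model that ends before its site cannot show it. Of the 5, H3c13 has a model of 488 bases, but H2bc4, H2bc21, H2bc23 and H2bc24 have longest models of 1156 to 2620 bases. The search also misses a stem that is not perfectly paired or does not begin with GG. Spliced models are annotated for H2bc4, H2bc23 and H2bc24, and none for H2bc21 or H3c13. Why these genes showed no stem-loop was not tested. A poly(A) signal was present in all 9 variants, and in 89.3% of the protein-coding genes with a row.

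**Figure D3:**
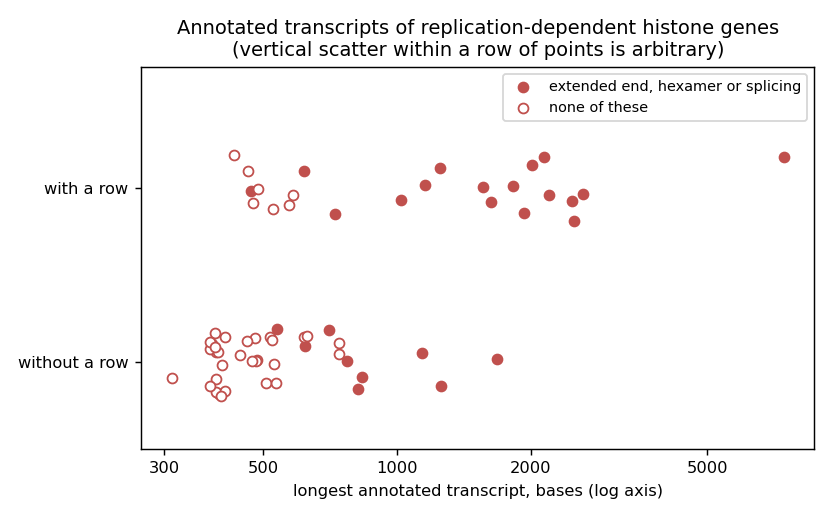
Length of the longest annotated transcript in bases (horizontal log axis) of the 64 replication-dependent histone genes, with a row (upper points) and without (lower points). Filled points have an end extended by at least 100 bases past the stem-loop, a poly(A) signal or splicing, which holds for 17 of 24 above and 9 of 40 below.

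Inside the 24, genes with and without such an end had levels that overlapped. The 17 genes with such a feature had a median at percentile 10.6 (range 1.30 to 89.5), and the 7 without had one at percentile 13.6 (range 6.64 to 58.4). H1f2, the highest, has a model that runs 840 bases past its stem-loop to a poly(A) signal, and H2ax has one that runs 822 bases past. H1f3, near the bottom, has the longest model, which runs 4884 bases past its stem-loop with no poly(A) signal at the end. H2ac18 and H2ac19 have short models that end 35 bases past the stem-loop.

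Sequence shared with other annotated genes limits what a single level says. The share of 50-base stretches of a gene's transcripts that also occur in another annotated gene, on either strand, was at least 10% in 20 of the 24 replication-dependent genes and in 3 of the 9 variants. It was 100% for H2ac18, H2ac19, H3c13 and H3c14. Part of this sharing is with predicted genes annotated over the same DNA, on the same strand for H3c14 (Gm20634) and on the opposite strand for H3c13 (Gm20628). Without genes that overlap the member, the share was 100% for H2ac19, 96.3% for H2ac18, 79.7% for H3c13 and 34.7% for H3c14, and it was at least 10% in 17 of the 24 replication-dependent genes and in 2 of the 9 variants. Every such stretch of H2ac19 is found in H2ac18. H2bc23 shared 97.3% with H2bc24. How reads matching several genes were counted is not given in the sources used here, so the levels of these genes are uncertain. The 4 replication-dependent genes under 10% were H2bc21 (0), H4c14 (1.01%), H1f3 (2.25%) and H1f2 (8.54%), and their median lay at percentile 20.0. H2az1 shared 35.4% and H2az2 none. H3f3a shared 27.1%, and 13.38% without genes that overlap it.

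**Figure D4:**
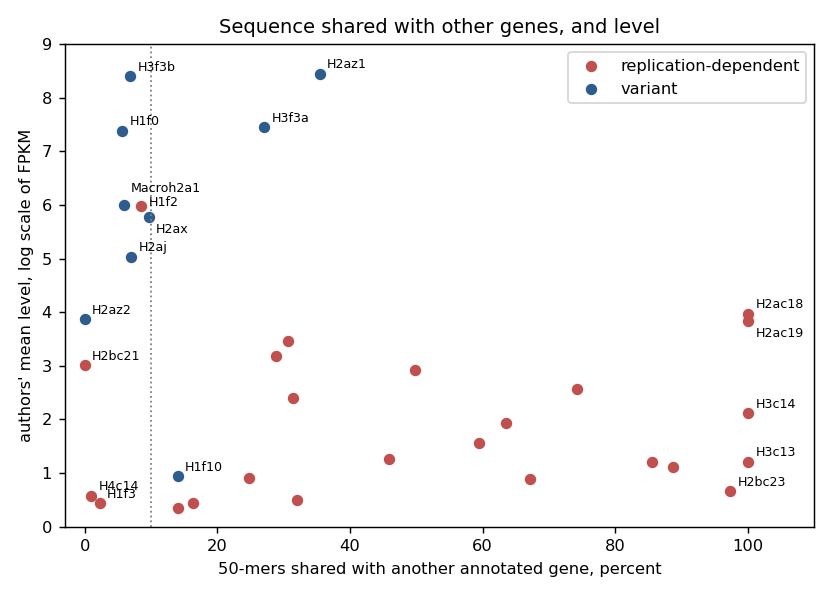
Level of each histone gene (vertical axis, log scale of FPKM) against the percentage of its 50-base stretches found in another annotated gene (horizontal axis), with replication-dependent genes in red, variants in blue and a dotted line at 10%. H1f2 is a replication-dependent gene of high level that shares little (8.54%), and H2ac18 and H2ac19 share 100%.

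Overlapping genes add a further uncertainty for 7 members that overlap another gene on the same strand. H1f4 and H2bc6 overlap each other, and the H2bc6 gene, with its spliced models, spans chr13:23583670-23621124 on the minus strand. H2ac25 overlaps Trim17 on chromosome 11, and 31.5% of its 50-base stretches are also in Trim17. H2ac18 and H3c14 overlap Gm20634, H2ac6 overlaps Gm24991, and the variant H1f10 overlaps Gm47286.

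The clusters were unevenly represented. On chromosome 13, which holds the largest cluster, 16 of 53 annotated replication-dependent genes had a row, with a median at percentile 9.52. On chromosome 3, 7 of 10 had a row, with a median at percentile 20.7 and a range from 3.51 (H4c14) to 58.4 (H2ac18). H2ac18 shares 89.2% of its 50-base stretches with H2ac19, and H3c13 shares 79.7% with H3c14 and with H3c15. The rows of these genes are therefore not separate observations. The only annotated gene on chromosome 11, H2ac25, had a row. Many H2A and H2B genes stand head to head and share the DNA between their start sites. Of 12 such arrangements, with gaps of 176 to 306 bases, both genes had a row in 1, only the H2B gene in 6, only the H2A gene in 1 and neither in 4. The arrangement with both was H2ac6 and H2bc4, 251 bases apart, where the percentiles were 1.30 and 47.0.

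Promoters were read from RefSeq windows on GRCm38.p6 that run from 250 bases before to 50 after the start site, and 21 of 24 replication-dependent and 8 of 9 variant members had one. The octamer ATTTGCAT, the element that the factor Oct-1 binds in H2B promoters, was present on either strand in 5 of the 21 (23.8%), against 1.97% of 27025 genes. These were 2 of 5 H2A and 3 of 6 H2B members with a window, and no replication-dependent H1, H3 or H4 member with a window held it. Annotated genes without a row held it at similar rates, 5 of 13 for H2A and 4 of 9 for H2B. CCAAT was present in 18 of the 21 (85.7%), against 41.1% of genes, and in 0 of the 3 H4 members with a window. TATAAA was present in 10 of the 21 (47.6%), against 15.7% of genes. Of the 8 variants with a window, 1 held the octamer (12.5%), 5 held CCAAT (62.5%) and 1 held TATAAA (12.5%), and H3f3b held all of these motifs. A match of letters is a description and not a site of binding.

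The octamers of the members are shown with 11 bases on either side, on the strand that spells the octamer, which is in capitals. They are given to show the motif and its place before each start.
H2bc8, chr13:23571341-23571348, 59 bases before the start: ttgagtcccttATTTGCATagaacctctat
H2bc12, chr13:22035791-22035798, 30 bases before the start: catttcactttATTTGCATacgaagttcta
H2bc6, chr13:23586030-23586037, 67 bases before the start: agtaagacttaATTTGCATaagactgccta
H2ac6, chr13:23684082-23684089, 130 bases before the start: ctggaaacttcATTTGCATaatcccaccca
H2ac25, chr11:58954566-58954573, 119 bases before the start: gagccttcctaATTTGCATatgccttaccc
H3f3b, chr11:116024571-116024578, 74 bases before the start: acagaaccctgATTTGCATacaccaacgac
In the H2B genes the octamer reads along the gene, and in H2ac6, H2ac25 and H3f3b it reads on the opposite strand. The octamer listed for H2ac6 lies between its start and that of H2bc4, and it reads along H2bc4 (level 3.47), which had no promoter window of its own. H3f3b had a level of 8.40, and the other 5 genes listed had levels from 0.35 to 2.91.

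Genes that make and end histone mRNAs were mostly present. The list for histone transcription and 3′ end processing holds 36 names, of which 2 matched no RefSeq symbol or synonym and 1 was a second name of a listed gene. Of the 33 genes left, 32 had a row, with a median at percentile 59.9. Slbp, which encodes the stem-loop binding protein, had a level of 5.03 (percentile 79.0). Npat, the coactivator of histone genes at S phase entry, had a level of 3.12 (percentile 38.9), and Casp8ap2 had one of 2.15 (percentile 21.1). Lsm10 and Lsm11, parts of the U7 particle that cuts histone pre-mRNA, had levels of 3.45 and 1.61 (percentiles 46.4 and 14.1), and Lsm11 was the lowest of the list. Snrpb was the highest, at percentile 96.9.

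Histone chaperones, the proteins that escort histones to DNA, were mostly above the median of all rows. Of 43 names listed, 1 matched no RefSeq symbol or synonym, and 40 of the other 42 had a row, with a median at percentile 72.1 and 29 at or above the median of all rows. They ranged from Cdan1 (percentile 16.8) to Npm1 (percentile 99.6). All 39 genes listed for S phase and replication forks had a row, with a median at percentile 69.7, from Pole (29.5) to Pcna (97.1), the sliding clamp of replication. Mki67, a marker of dividing cells, stood at percentile 69.2. Nfatc1, the main transcription factor of osteoclast formation, stood at percentile 83.8. These levels also pool both conditions.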

How the data were processed

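RNA of 6 RAW264.7 samples (3 Ctrl, 3 RANKL) was sequenced by the authors. The submitters' processing notes name DESeq and mm10. For the aligner, the counter and the row filter, nothing is given in the sources used here. The deposited table holds 11031 rows. The only measurement used is the authors' mean FPKM over libraries, taken here as log2 although its header states no scale. Its 12 columns per library (counts and FPKM) match no sample label and were not used. Its 4 columns of the authors' own comparison (fold change, p-value, adjusted p-value and direction) were not used either. The planned tests of RANKL against Ctrl were therefore not fitted, the rule for named genes based on a threshold was not applied, and every member is named. Of the other lists, 10 genes were set by name and the rest of those named were chosen after their values were seen. The members and lists were chosen with earlier results of these data known.

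Gene models, stem-loops, poly(A) signals, shared 50-base stretches and overlaps came from GENCODE M21, and promoter windows from RefSeq (GRCm38.p6). The stem-loop and sharing searches were tested on simulated data. Python 3.11.15 and pandas 2.3.3 were used. Depth per sample was not analysed here.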

Additional observations from a re-analysis of the deposited data

How the results depend on the processing

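No paired analysis was possible because no column could be tied to a replicate. For the same reason other choices laid out for the comparison of RANKL with Ctrl, on normalization, filters and left-out replicates, were not run. Those on fold changes and calls were not run because the authors' own comparison was not used. The settings below were chosen after seeing the data. The median percentile of the replication-dependent genes (12.1) was 20.0 over the 4 that share under 10% of their sequence, 15.9 over the 20 members with a stem-loop, and 12.1 without genes that overlap another on the same strand. The median percentile of the variants (89.8) was 88.9 over the 6 that share under 10%, 88.9 with the centromere histone gene Cenpa added, 93.2 over the 8 that overlap no gene on the same strand, and 55.9 over the 13 members without a stem-loop. The share of annotated variant genes with a row (64.3%) was 50% with the 4 that the symbol rule leaves out. The value of 55.9 is a median over genes of both kinds. Levels have no error here, so small differences between genes are not resolved.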

Other observations

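Cenpa, which encodes the H3 form that marks centromeres, falls outside the symbol rule and had a level of 5.55 (percentile 85.8). Of the 17 genes listed for centromere histone deposition and condensation, all had a row, with a median at percentile 58.6 and Oip5 the lowest (percentile 32.7). Hjurp, the chaperone of Cenpa, stood at percentile 71.7 and Top2a, which untangles chromosomes, at percentile 85.7. Of 20 genes listed as other abundant chromatin proteins, 19 had a row, with a median at percentile 78.1. Lmna, which encodes a protein of the nuclear lamina, was the highest (percentile 98.4). The list was drawn up for abundance, so its high median is a description and no separate result.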
